A study of Sus scrofa with 14 samples.

Results

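The plasma protein genes AFP, AHSG, TTR and APOA1 were followed in the uterus of 14 pregnant sows. The genes were taken as every probe set whose only gene symbol in the platform annotation was 1 of these 4 names, which gave 4 probe sets, 1 per gene, of 23999 tested probe sets, and 4 genes of the 6765 that had such a probe set. The genes were chosen by their measured levels in these 14 arrays, in which AFP and AHSG were high in few sows, and PAG6 was set beside them with its levels known, so their own levels and group differences are a description and carry no test.

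The study asked which transcripts differ in the pregnant uterus between sows of high and low prolificacy. The groups were 5 high prolificacy and 9 low prolificacy sows, all Iberian x Meishan animals of the F2 generation, slaughtered between days 30 and 32 of the fifth gestation. Uterus was frozen in liquid nitrogen, and each sow's total RNA was hybridised to a porcine Affymetrix GeneChip, and the labels call every sow a biological replicate. The labels do not say which layer of the uterus was sampled, how near to a conceptus, or whether fetal membranes were removed. Arrays are called by group and replicate number here (high 1 to high 5, low 1 to low 9).

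In the mammalian fetus, plasma proteins are made first by the visceral endoderm of the yolk sac and then by the liver. AFP, alpha-fetoprotein, is the albumin-family protein that dominates early fetal plasma, and AHSG, fetuin-A, is a mineral-binding glycoprotein that is abundant in fetal serum. TTR carries thyroxine and, through retinol-binding protein, vitamin A, and APOA1 is the main protein of high-density lipoprotein. The pig placenta does not invade: the trophoblast lies against the uterine epithelium and secretes pregnancy-associated glycoproteins (PAG), of which PAG6 is a member. HBE1 encodes an embryonic globin of the first red cells.

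Levels are RMA values on the log2 scale, in which 1 unit is a 2-fold difference of the same probe set between arrays, and levels of different probe sets cannot be ranked against each other. The medians of the arrays ranged from 5.72 to 5.84. In the absence of detection calls, a level below about these medians, such as AFP in most arrays, may be no more than background. The array high 4 stood apart in many of the genes described here, and high 1 in some of them, so the differences of AFP, AHSG, TTR and APOA1 are also given without high 4 and without both. The labels name no hybridisation or scan batch.

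AFP was high in high 4, raised in high 1 and low in all of the others. Its level was 6.78, 4.02, 3.82, 11.10 and 4.28 in high 1 to high 5, while the 9 low prolificacy arrays had a lowest value of 3.66, a median of 4.05 and a highest of 4.29. The level in high 4 was 133-fold the median of the 14 arrays, and that in high 1 was 6.61-fold. The other 12 arrays lay between 3.66 and 4.29, so the groups overlapped and the difference between them rested on 2 sows. The means were 6.00 ± 3.09 in high and 4.02 ± 0.20 in low prolificacy sows (SD, n = 5 and n = 9), a difference of 1.98 ± 0.91 (SE). That difference was 0.71 without high 4 and 0.02 without high 1 and high 4. In bulk tissue, more cells of a type and more RNA per cell cannot be told apart.

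AHSG followed the same 2 high prolificacy arrays and was also raised in a low prolificacy array. Its level was 8.32, 7.00, 7.08, 12.98 and 6.66 in high 1 to high 5, against a lowest value of 6.12, a median of 6.54 and a highest of 7.82 in low prolificacy sows. High 4 reached 75.3-fold the median of all arrays, high 1 reached 2.97-fold and low 2 reached 2.10-fold, and the groups overlapped. The group means were 8.41 ± 2.63 in high and 6.68 ± 0.51 in low prolificacy sows (SD, n = 5 and n = 9). The difference of 1.73 ± 0.80 (SE) was 0.59 without high 4 and 0.24 without high 1 and high 4.

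TTR was again highest in high 4, but the array next to it was a low prolificacy one. High 1 to high 5 had levels of 5.58, 5.20, 4.65, 8.44 and 5.35, and low prolificacy arrays had a lowest value of 4.11, a median of 4.56 and a highest of 6.02. Relative to the median of the 14 arrays, TTR was 14-fold in high 4, 2.62-fold in low 2, 1.92-fold in high 1 and 1.84-fold in low 5. The groups overlapped, with means of 5.84 ± 1.49 in high and 4.72 ± 0.63 in low prolificacy sows (SD, n = 5 and n = 9). The difference of 1.12 ± 0.51 (SE) was 0.48 without high 4 and 0.35 without high 1 and high 4.

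APOA1 had the narrowest spread of the 4 genes and a group difference of the opposite sign. Its level was 8.96, 8.21, 7.71, 10.62 and 9.13 in high 1 to high 5, against a lowest value of 8.53, a median of 9.50 and a highest of 10.42 in low prolificacy sows. High 4 was the highest array and low 2 the next, at 2.46-fold and 2.15-fold the median of all arrays, whereas high 3 and high 2 were the lowest, at 0.327-fold and 0.463-fold. The means were 8.92 ± 1.11 in high and 9.46 ± 0.58 in low prolificacy sows (SD, n = 5 and n = 9), and the groups overlapped. The difference of -0.53 ± 0.41 (SE) became -0.96 without high 4 and -1.11 without high 1 and high 4.

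**Figure D1:**
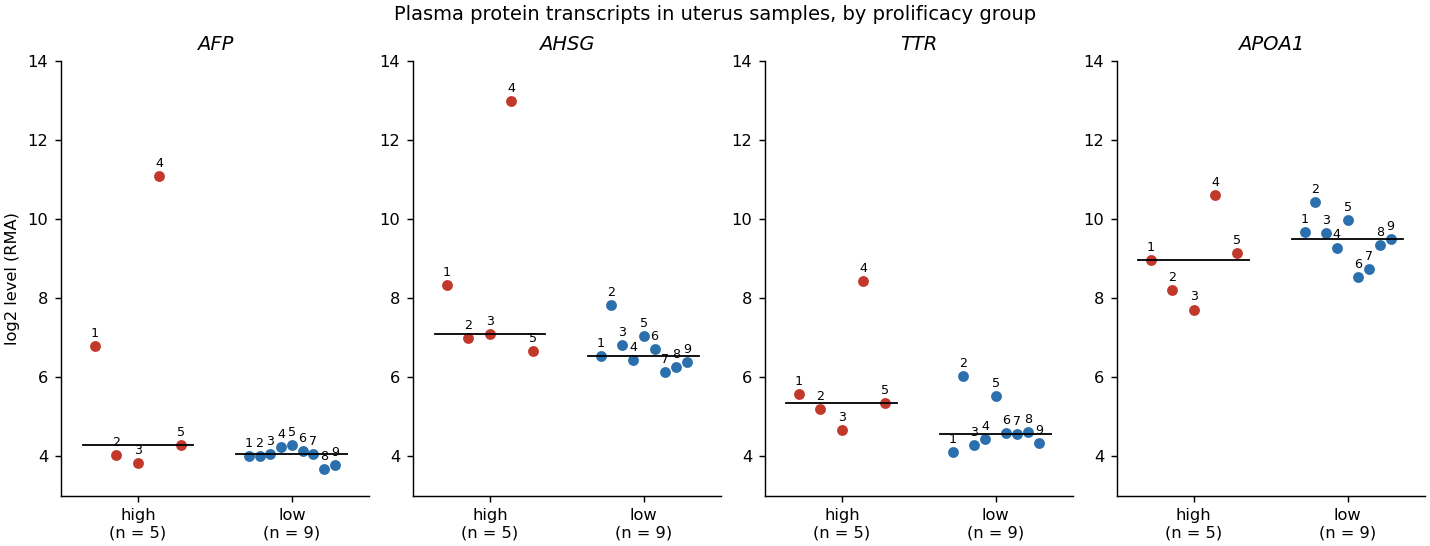
Log2 level of AFP, AHSG, TTR and APOA1 in each array (points numbered by replicate, red for high and blue for low prolificacy), with a line at each group's median. High 4 is the highest array for each of the 4 genes, at 11.10 for AFP, 12.98 for AHSG, 8.44 for TTR and 10.62 for APOA1.

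Between the prolificacy groups, limma with Benjamini-Hochberg adjustment called 7.85% of all probe sets (1885 of 23999) and 10.8% of genes by their brightest probe set (728 of 6765, 361 higher and 367 lower in high prolificacy sows). The groups did not overlap for 2.64% of all probe sets and for 0 of the 4 members. The members' own calls are left out, since their levels chose them.

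The trophoblast gene PAG6 was high in a different set of arrays. By its brightest probe set of 3, PAG6 had levels of 10.74, 3.86, 4.33, 11.43 and 6.21 in high 1 to high 5, against a lowest value of 3.60, a median of 5.24 and a highest of 10.89 in low prolificacy sows. High 4, low 4 and high 1 were close to each other at the top, at 52.3-fold, 35.8-fold and 32.4-fold the median of the 14 arrays, and low 5 followed at 8.07-fold. The groups overlapped widely. PPAG3, another pregnancy-associated glycoprotein gene, had the same top arrays, with 10.18 in high 4, 9.39 in low 4 and 9.06 in high 1. PAG genes are related in sequence, so probe sets of this family may share signal.

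High 1 and low 4 had like levels of the trophoblast transcript and unlike levels of AFP and AHSG. With PAG6 at 10.74 in high 1 and 10.89 in low 4, AFP was at 6.78 in high 1 and 4.23 in low 4, and AHSG was at 8.32 in high 1 and 6.42 in low 4. TTR and APOA1 in low 4 were at 0.868-fold and 0.976-fold the median of all arrays. A high PAG6 level thus occurred both with AFP raised and with AFP close to its median (1.13-fold in low 4), in the upper part of the narrow range of the other 12 arrays. Low 2 showed the converse for 3 of the genes: PAG6 was at 0.553-fold its median there, while AHSG, TTR and APOA1 were at 2.10-fold, 2.62-fold and 2.15-fold and AFP was at 0.964-fold.

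**Figure D2:**
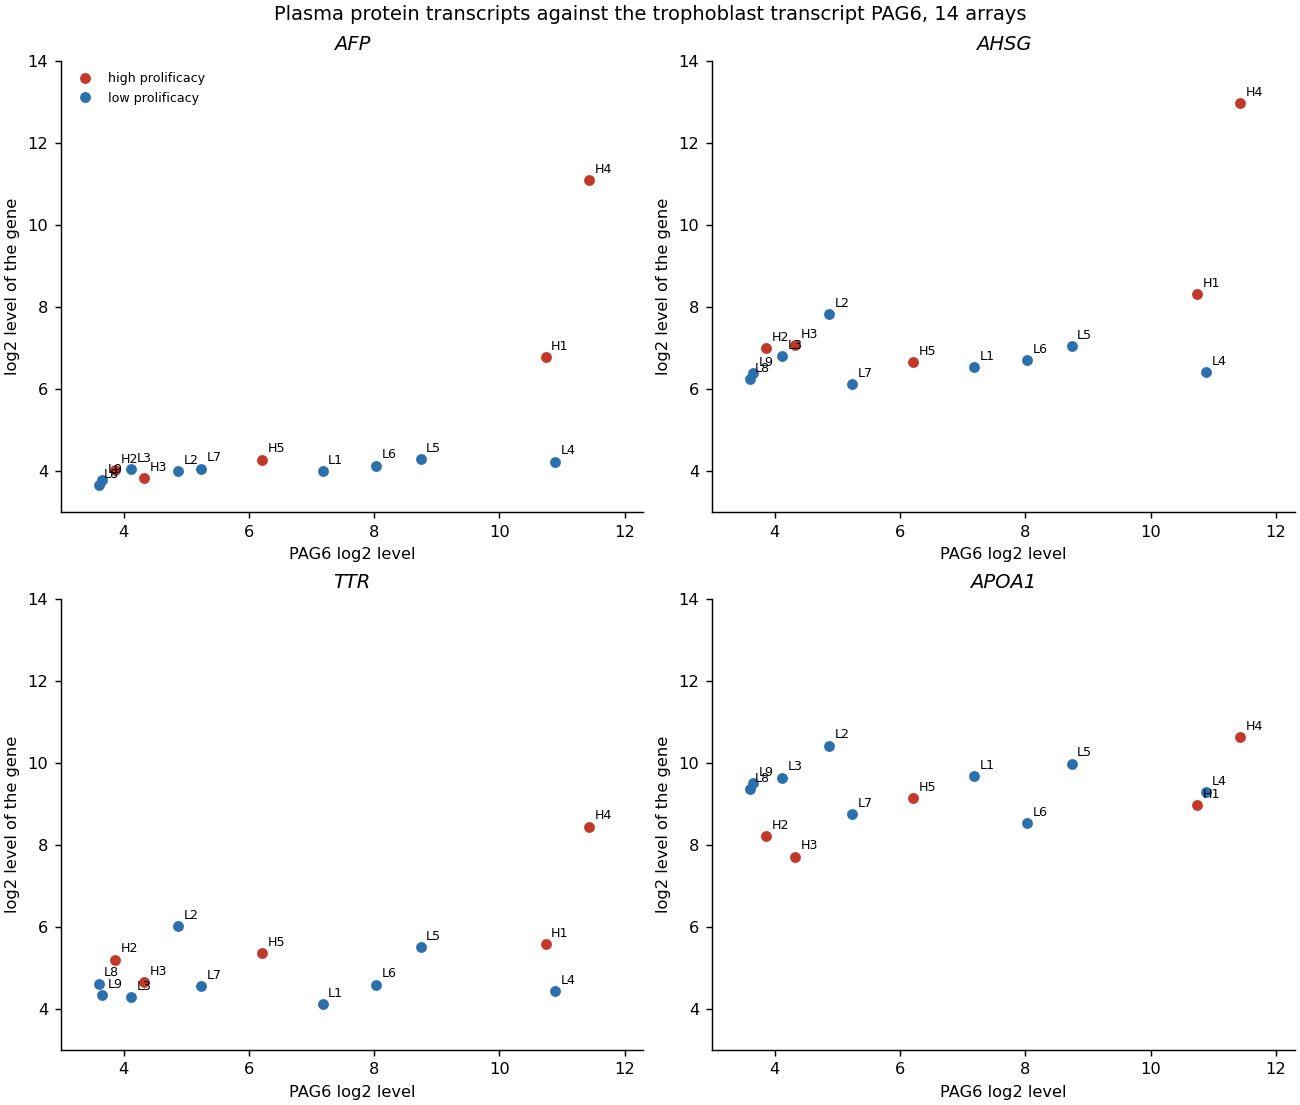
Log2 level of each plasma protein gene (vertical axis) against the log2 level of PAG6 (horizontal axis), 1 point per array, red for high and blue for low prolificacy. High 1 and low 4 have nearly the same PAG6 level, 10.74 and 10.89, and AFP levels of 6.78 and 4.23.

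High 1 and high 4 lay outside the range of the others in AFP, so relations between genes are given over the other 12 arrays, as descriptions without p-values, among 18 relations computed. These levels come from the same arrays and tissue pieces. AFP, which spans only 3.66 to 4.29 there, had a Pearson r of 0.72 and a Spearman rho of 0.78 with PAG6, and r was 0.62 without low 4 and low 5, the arrays farthest out in PAG6. AHSG, TTR and APOA1 had r of -0.09, -0.02 and 0.17 with PAG6. With ALB, the serum albumin gene, r was 0.89 for TTR (rho 0.78) and 0.73 for AHSG (rho 0.54), and 0.77 and 0.47 without low 2 and low 5, the arrays farthest out in ALB. AFP and APOA1 had r of 0.38 and 0.25 with ALB. AHSG and TTR had r of 0.74 with each other (rho 0.58, and r of 0.54 without low 2 and low 7), and AFP with AHSG had 0.15.

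ALB itself did not have the AFP pattern. Its levels were 8.29, 9.18, 5.50, 8.90 and 6.85 in high 1 to high 5, against a lowest value of 3.93, a median of 5.22 and a highest of 10.07 in low prolificacy sows. Low 5, low 2 and high 2 led, at 20.4-fold, 19.5-fold and 11-fold the median of all arrays, ahead of high 4 at 9.11-fold and high 1 at 5.99-fold. In the Sscrofa11.1 gene order, AFP lies between ALB and AFM. High 2, low 2 and low 5, the leading arrays of ALB, had AFP at 0.980-fold, 0.964-fold and 1.18-fold of its median.

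Among other plasma protein genes, some were high with AFP in high 4 and others shared the arrays of ALB. SERPINA1, the alpha-1-antitrypsin gene, had 5.89, 5.70, 5.29, 12.31 and 5.85 in high 1 to high 5, against a lowest value of 4.56, a median of 5.18 and a highest of 7.17 in low prolificacy sows. Its level in high 4 was 116-fold the median of the 14 arrays. APOB, the structural protein of low-density lipoprotein, was at 39.1-fold, APOC2, the cofactor of lipoprotein lipase, at 26.6-fold, and PLG, plasminogen, at 6.22-fold in high 4. APOB was also at 5.8-fold in low 5 and 2.05-fold in low 2, and APOC2 at 3.44-fold in low 5, which were arrays with high ALB, so the genes do not fall into separate sets. APOA2, the second protein of high-density lipoprotein, was at 16.2-fold in high 4 and 5.82-fold in high 1, where AFP and PAG6 were both raised. Low 5, low 4 and low 6 followed for APOA2, at 2.04-fold, 1.78-fold and 1.45-fold. In the same order, PAG6 was at 8.07-fold, 35.8-fold and 4.95-fold there, and AFP was at 1.18-fold, 1.13-fold and 1.05-fold.

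For ORM1 and TF, the probe sets of a gene differed. ORM1, the gene of orosomucoid, had 1 probe set of 3 that was at 11.57 in high 4 and 6.83 in high 1, or 262-fold and 9.80-fold its median, while its brightest probe set stayed between 7.77 and 8.75 in all arrays. TF, the transferrin gene, had 1 probe set at 10.06 in high 4, or 37.8-fold its median, whereas its brightest probe set was at 6.23 there, below its median of 6.70. These probe sets were singled out after their values were seen.

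FGB, the fibrinogen beta chain gene, shared the arrays of ALB: it was at 46.8-fold the median in low 5, 15.8-fold in low 2, 7.58-fold in high 2 and 6.52-fold in high 1, with 19.3-fold in high 4. APOC3, a neighbour of APOA1 in the Sscrofa11.1 gene order, was at 18.7-fold in high 4, 15.3-fold in low 5, 9.68-fold in low 2, 6.31-fold in high 2 and 5.18-fold in high 1. APOA1 was at 1.58-fold in low 5 and below its median in high 2 and high 1. HP, the haptoglobin gene, led in low 5 at 12.2-fold, and ARG1, the urea cycle arginase of hepatocytes, was at 6.34-fold in low 5 and 3.99-fold in low 2 but 1.09-fold in high 4. RBP4 is the retinol-binding partner of TTR, and the uterus also secretes it. Its brightest probe set of 2 was bright in all arrays and did not exceed 1.86-fold its median in high 4 or high 1. The other RBP4 probe set was dim, with a median of 4.89. It was highest in high 4 at 5.98, with 5.70 in low 2, 5.67 in low 5 and 4.88 in high 1.

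**Figure D3:**
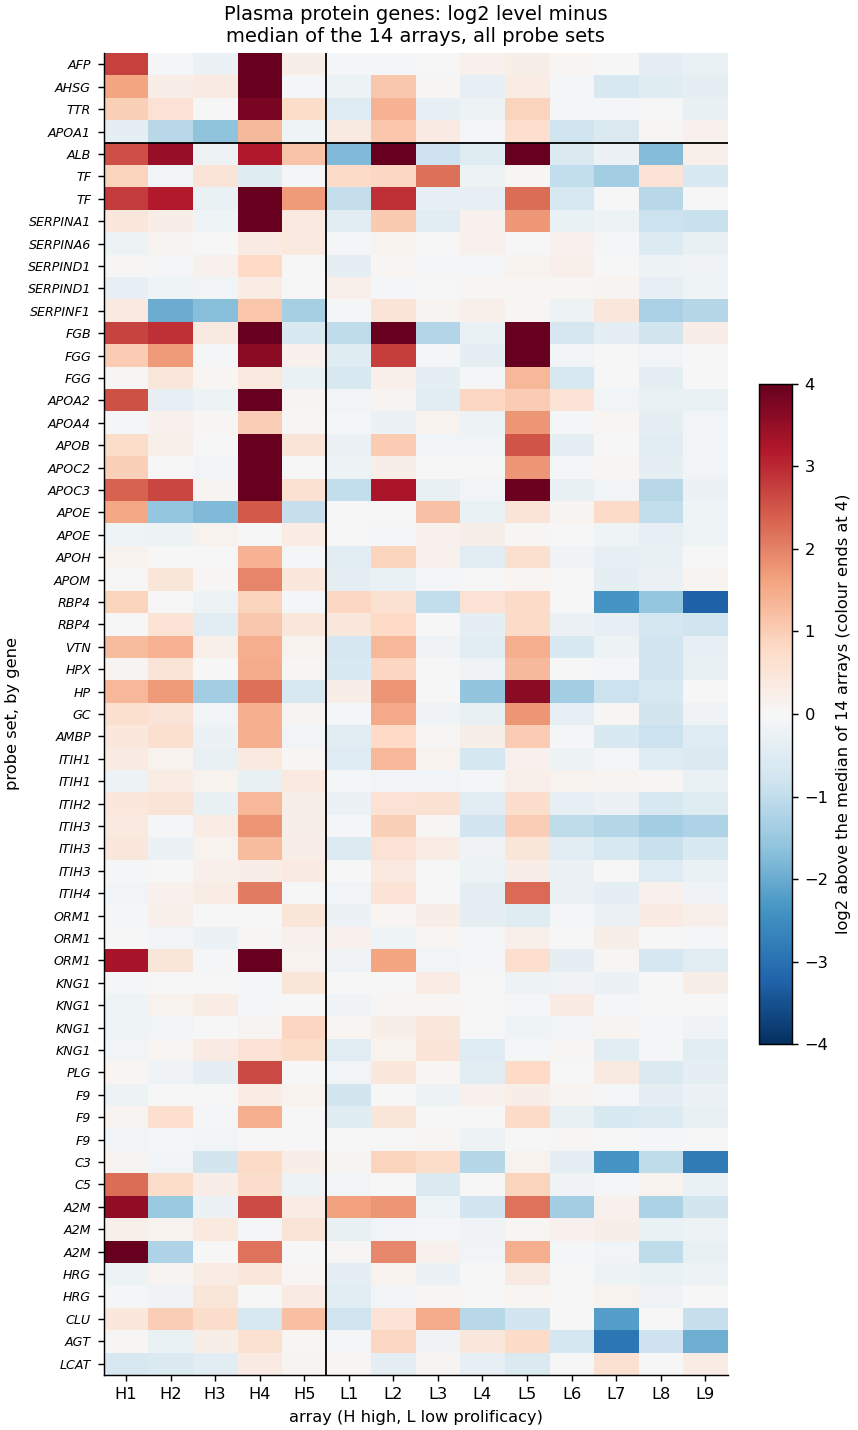
Log2 level above the gene's own median of the 14 arrays (colour, which ends at 4 units) for AFP, AHSG, TTR and APOA1 and for the other plasma protein genes, 1 line per probe set, in each array (columns, high prolificacy at the left). High 4 is raised in AFP (133-fold the median) and ALB (9.11-fold), while low 2 and low 5 are raised in ALB (19.5-fold and 20.4-fold) and not in AFP.

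A list of 48 other plasma protein genes, written with earlier results of these data known, had 37 on the array. The shares that follow are therefore a description and no test. By the brightest probe set, 22 of the 37 (59.5%) lay at least 2-fold above their own median in high 4, where 5.35% of all genes did. High 1 had 10 (27.0%, against 2.73% of all genes). Low 5 had 16 (43.2%, against 2.54%), low 2 had 11 (29.7%, against 1.82%) and high 2 had 6, against 4.63% of all genes. Low 4 had 0 of the 37, against 1.58% of all genes. Of AFP, AHSG, TTR and APOA1, 4 of 4 were that high in high 4, 2 in high 1, 3 in low 2 and 0 in the other arrays, which restates the levels above. Of the 37 genes, 17 (45.9%) were highest in high 4 and 8 (21.6%) in low 5, against 9.0% and 4.88% of all genes.

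The trophoblast list had another order of arrays. Of its 17 measured genes, PAG6 among them, 10 were at least 2-fold above their median in high 4, where 5.35% of all genes were. There were 6 in high 1, 7 in low 4 and 6 in low 5 (against 2.73%, 1.58% and 2.54% of all genes), and 0 in low 2 (1.82%). GATA3, PLET1 and HAND1, given next, are among the 4 of 16 list genes called in the regression on PAG6 below. Their levels thus restate the PAG6 order in part. GATA3, a trophoblast transcription factor, was at 10.07 in high 4, 7.80 in high 1, 8.02 in low 4 and 4.85 in low 2. PLET1, a gene named for its placental expression, was at 12.87 in high 4, 12.31 in high 1, 12.49 in low 4 and 6.55 in low 2. HAND1, a factor of trophoblast and extra-embryonic mesoderm, was at 8.57 in high 4, 6.89 in high 1 and 6.34 in low 4. For CYP19A1, the aromatase gene, 1 of 4 probe sets was at 7.90 in high 4, 5.83 in low 4 and 5.51 in low 5, and its brightest probe set stayed between 4.17 and 4.89.

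Embryonic red cell transcripts followed neither AFP nor PAG6 closely. HBE1 had 3.97, 4.94, 6.01, 12.57 and 6.20 in high 1 to high 5, while in low prolificacy sows it was 12.65 in low 5, 10.94 in low 4, 10.92 in low 1, 9.72 in low 2 and 9.42 in low 7. High 1, with AFP, AHSG and PAG6 raised, had HBE1 at 0.228-fold its median, the lowest array of all. Low 1, low 4, low 5 and low 7 had HBE1 raised with AFP at or near its median. Of the 8 measured erythroid genes, 2 were at least 2-fold above their median in high 4, 0 in high 1, 5 in low 2 and 4 in low 5. The shares of all genes in these arrays were 5.35%, 2.73%, 1.82% and 2.54%.

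**Figure D4:**
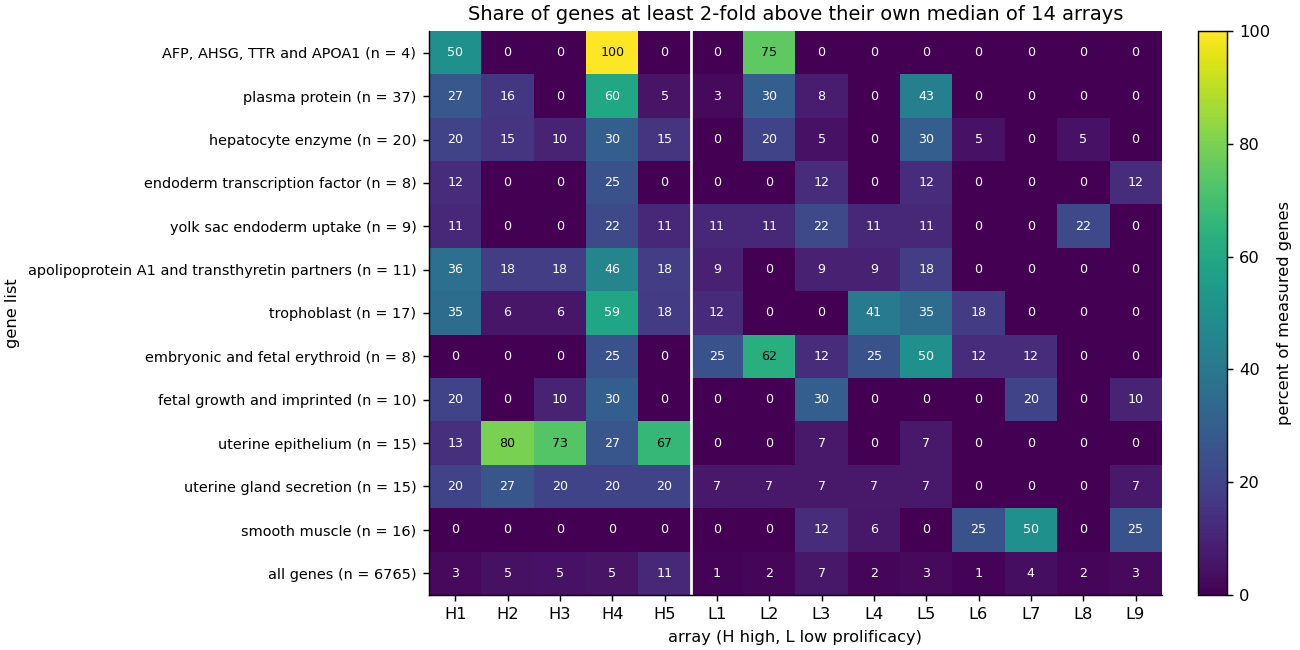
Percent of the measured genes of each list at least 2-fold above their own median of 14 arrays, by array (high prolificacy at the left), beside the percent of all genes. In low 4 the plasma protein list is at 0 of 37 and the trophoblast list at 7 of 17, and in low 2 the plasma protein list is at 11 of 37 and the trophoblast list at 0 of 17.

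Markers of the tissues that make these proteins were set beside the pattern. Among hepatocyte markers, CPS1, a urea cycle enzyme, was at 7.66 in high 4, 7.79 in high 1 and 7.63 in high 2, with a median of 6.40. TAT and ARG1 in high 4, at 3.59 and 3.48, were close to their medians of 3.59 and 3.36. CYP2E1 was at 4.88 in high 4, 5.12 in high 1, 5.66 in low 2 and 5.69 in low 5, with a median of 4.24. Of the 20 measured hepatocyte enzymes, 6 were at least 2-fold above their median in high 4, 4 in high 1, 4 in low 2 and 6 in low 5. That was against 5.35%, 2.73%, 1.82% and 2.54% of all genes.

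Of 8 markers of yolk sac endoderm, CUBN and SOX17 had no probe set with that symbol alone. AMN, the membrane partner of cubilin, was at 4.15 in high 4 and 3.25 in high 1. LRP2, the endocytic receptor megalin, was at 8.14 in high 4, 8.07 in high 1, 7.82 in low 4 and 7.89 in low 5, with a median of 5.66, and so had the arrays of PAG6. DAB2, an endocytic adaptor, was highest in high 4, at 9.73, with a median of 8.14. HNF4A, a factor of endoderm and liver, lay between 5.51 and 6.45 by its brightest probe set of 2, with its highest level in high 4. The other HNF4A probe set was at 4.84 in high 4, with a median of 4.85 and its highest level, 5.17, in high 5. GATA4 was at 5.37 in high 4 and 3.89 in high 1, against a median of 3.97. GATA6 was at 8.05 in high 1 and 7.79 in high 4, against a median of 6.28. Of the 8 measured endoderm transcription factors and the 9 genes of yolk sac uptake, 2 and 2 were at least 2-fold above their median in high 4. There, 5.35% of all genes were that high. Arrays without raised AFP had such genes too: 2 of the uptake genes in low 3 and 2 in low 8, and 1 endoderm factor in low 3, low 5 and low 9. Several markers of both tissues are also expressed elsewhere, and which cells gave the AFP signal was not tested.

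High 4 also stood apart in EIF1AY, which the Sscrofa11.1 gene table places on the Y chromosome. Its level was 5.86 in high 4, against 2.16 to 2.55 in the other arrays, or 11.4-fold the median. High 1, which shared the AFP pattern at a lower level, had EIF1AY at 0.982-fold the median. SRY was at 2.95 in high 4, within its range of 2.62 to 3.37 over all arrays. The part of this signal in the AFP pattern was not tested.

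Each probe set was also regressed on the AFP level across all 14 arrays with limma. AFP was chosen by these same levels, so what follows is a description. Limma with Benjamini-Hochberg adjustment called 0.733% of probe sets, 175 with a positive and 1 with a negative slope, and 60 of 6764 genes (0.887%), which included 6 of the 37 plasma protein genes and 7 of the 17 trophoblast genes. The slope of APOA2 was 0.60 ± 0.06 and that of SERPINA1 was 0.89 ± 0.11 (SE) per unit of AFP. APOC2, APOB, PLG and APOM completed the plasma protein calls, and HAND1, HSD3B1, HSD17B1, IFNG, CYP17A1, TFAP2C and GATA3 were the trophoblast calls. The slopes of AHSG, TTR and APOA1 on AFP were 0.84 ± 0.07, 0.49 ± 0.07 and 0.18 ± 0.10 (SE), given without a test.

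Most of these calls rested on high 4. Without it, 4 of 6764 genes were called (0.0591%), with 1 plasma protein gene, APOA2, and 0 trophoblast genes by limma's adjusted p. At an unadjusted p below 0.05 there were 6 of 17 trophoblast genes and 118 of 6764 genes. Without high 1 and high 4, 0 genes were called by their brightest probe set with limma (972 had an unadjusted p below 0.05), and 1 probe set of all tested. With the PAG6 level as a covariate over all arrays, 8 genes were called (0.118%), among them APOA2, APOC2 and SERPINA1 of the plasma protein list and HAND1 of the trophoblast list.

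Regression on PAG6 called 0.433% of probe sets and 35 of 6764 genes (0.517%, limma with Benjamini-Hochberg adjustment), with 103 positive slopes and 1 negative slope among the probe sets. Of the trophoblast list, 4 of 16 genes were called (PLET1, GATA3, HSD3B1 and HAND1), and of the plasma protein list 1 of 37. The plasma protein gene was APOA2, with a slope of 0.37 ± 0.06 (SE), so APOA2 was called in both regressions. It was no longer called on PAG6 with the AFP level as a covariate, under which 9 genes were called (0.133%). Without high 1 alone, APOA2 was not called on PAG6 either, where 34 genes were (0.503%, limma). It was still called on PAG6 without high 4, and without both high 1 and high 4. Those fits called 17 genes (0.251%) and 15 genes (0.222%). The slopes of AFP, AHSG, TTR and APOA1 on PAG6 were 0.46 ± 0.14, 0.33 ± 0.13, 0.19 ± 0.09 and 0.09 ± 0.07 (SE). That of AFP was the steepest of the 4 with high 1 and high 4 included. In the other 12 arrays AFP spanned only 3.66 to 4.29, while PAG6 spanned 3.60 to 10.89.

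For each gene, the 5 genes with the most similar levels over the 14 arrays were named by Pearson r of the brightest probe sets. AFP was most like AHSG (0.96), APOA2 (0.94), ATP6V0A4 (0.93), HAND1 (0.93) and APOC2 (0.92). Without high 1 and high 4 these were 0.15, 0.69, 0.75, 0.49 and 0.56. AHSG was most like AFP, SERPINA1 (0.95), TTR (0.94), EIF1AY (0.93) and APOC2 (0.93), and its r with EIF1AY was 0.07 without high 1 and high 4. TTR was most like SERPINA1 (0.95), AHSG (0.94), APOB (0.93), APOC2 (0.91) and PLG (0.90), and the first was 0.78 without high 4 and low 2, its own farthest arrays. The likeness of AHSG to AFP and to EIF1AY thus rested largely on high 1 and high 4, and that of APOA2 and ATP6V0A4 to AFP less so. Outside high 1 and high 4, however, AFP lay at 3.66 to 4.29, APOA2 at 3.04 to 4.53 and ATP6V0A4 at 3.02 to 4.31. These levels are all below the array medians and may be no more than background.

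APOA1 resembled other genes. Its closest were C1R (0.90), a complement protease, JAG1 (0.89), a Notch ligand, ESAM (0.88) and VWF (0.86), both of endothelium, and TCF21 (0.84), a factor of mesenchyme. Without high 3 and high 4, its farthest arrays, these were 0.84, 0.81, 0.83, 0.91 and 0.85. VWF had 8.30, 6.93, 7.29, 8.57 and 8.43 in high 1 to high 5, against a lowest value of 7.70, a median of 8.16 and a highest of 9.16 in low prolificacy sows, with the low values in high 2 and high 3 as for APOA1. VWF and ESAM were not called between the groups (differences of -0.44 ± 0.32 and -0.47 ± 0.25, SE, limma adjusted p of 0.49 and 0.32). The part of blood vessels in the APOA1 level was not tested.

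Among 11 measured partners of APOA1 and TTR, 2 were higher in high prolificacy sows and 0 lower by limma, while 4 had an unadjusted p below 0.05. In that comparison 10.8% of all genes were called and 26.8% had an unadjusted p below 0.05. SCARB1, the receptor through which cells take cholesterol from high-density lipoprotein, had 8.21, 9.09, 9.24, 8.74 and 9.18 in high 1 to high 5, against a lowest value of 6.80, a median of 7.36 and a highest of 8.11 in low prolificacy sows. The groups did not overlap, and the difference was 1.42 ± 0.23 (SE, limma adjusted p = 0.0026). ABCA1, the transporter that loads cholesterol onto APOA1, had 8.38, 8.86, 8.38, 7.06 and 10.23 in high 1 to high 5, against a lowest value of 4.96, a median of 6.79 and a highest of 7.66, a difference of 2.10 ± 0.53 (SE; adjusted p = 0.026, limma). The ABCA1 difference was 2.48 without high 4 and 2.68 without high 1 and high 4, and that of SCARB1 was 1.46 and 1.7. The ABCA1 call was lost without high 2, high 3 or high 5 (limma adjusted p of 0.075, 0.062 and 0.072).

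Between the same groups, where 10.8% of all genes were called, 8 of 15 epithelial genes were higher and 15 of 16 smooth muscle genes were lower in high prolificacy sows. With the mean of the epithelial list as a covariate, the SCARB1 difference was 0.78 and the ABCA1 difference was 1.73, and neither was called (limma adjusted p of 0.90 and 1.0), in a fit that called 2 of all 23999 probe sets. Of 15 gland secretion genes, 5 were higher. By array, 12 of the 15 epithelial genes were at least 2-fold above their median in high 2, 11 in high 3 and 10 in high 5, but 4 in high 4 and 2 in high 1, the arrays with raised AFP. In the same order of arrays, 4.63%, 4.82%, 11.2%, 5.35% and 2.73% of all genes were that high. With the epithelial mean as a covariate, the AFP difference between the groups was 2.95, against 1.98 without a covariate. Both values include high 1 and high 4, and without these arrays the AFP difference was 0.02, with no covariate.

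The lists closest to the members had few calls between the groups. Of 37 plasma protein genes, 0 were called by limma and 3 (8.11%) had an unadjusted p below 0.05, where 26.8% of all genes did. Their median difference was 0.50, against 0.07 over all genes, with high 4 included. By array, the median of the 37 genes above their own medians was 1.42 log2 units in high 4. It was 0.42, 0.15, -0.01 and 0.10 in high 1, high 2, high 3 and high 5. Among low prolificacy arrays it was 0.79 in low 5, 0.61 in low 2 and between -0.54 and 0.00 in the others. Of 8 endoderm transcription factors, 0 were called and 0 had an unadjusted p below 0.05, and of 8 erythroid genes, 0 were called and 1 had such a p. Of 9 genes of yolk sac uptake, AMN was called (1 of 9, near the 10.8% of all genes), at 3.67 ± 0.35 in high and 2.99 ± 0.20 in low prolificacy sows (SD, n = 5 and n = 9, limma adjusted p = 0.012), a dim level in both, with a difference of 0.57 without high 4. Of 17 trophoblast genes, DLX5 was called as higher, and of 10 genes of fetal growth and imprinting, NDN and SFRP1 as lower, against 10.8% of all genes called. The calls of DLX5 and SFRP1 were lost in 9 and 4 of the 14 fits that left out 1 array, high 4 among them (limma adjusted p of 0.063 and 0.051).

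The hepatocyte enzyme list had 2 of 20 genes higher, CES1 and MAT1A, which is near the 10.8% of all genes. The MAT1A call was lost in 5 of the 14 fits that left out 1 array. CES1, a carboxylesterase, had 8.28, 11.06, 10.21, 8.31 and 11.16 in high 1 to high 5, against a lowest value of 5.30, a median of 6.04 and a highest of 7.63 in low prolificacy sows. Its difference was 3.68 ± 0.52 (SE, limma adjusted p = 0.0013). High 4 and high 1, the arrays with raised AFP, were the lowest of the high prolificacy arrays for CES1, and it was higher in high prolificacy sows without them, by 4.69.

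**Figure D5:**
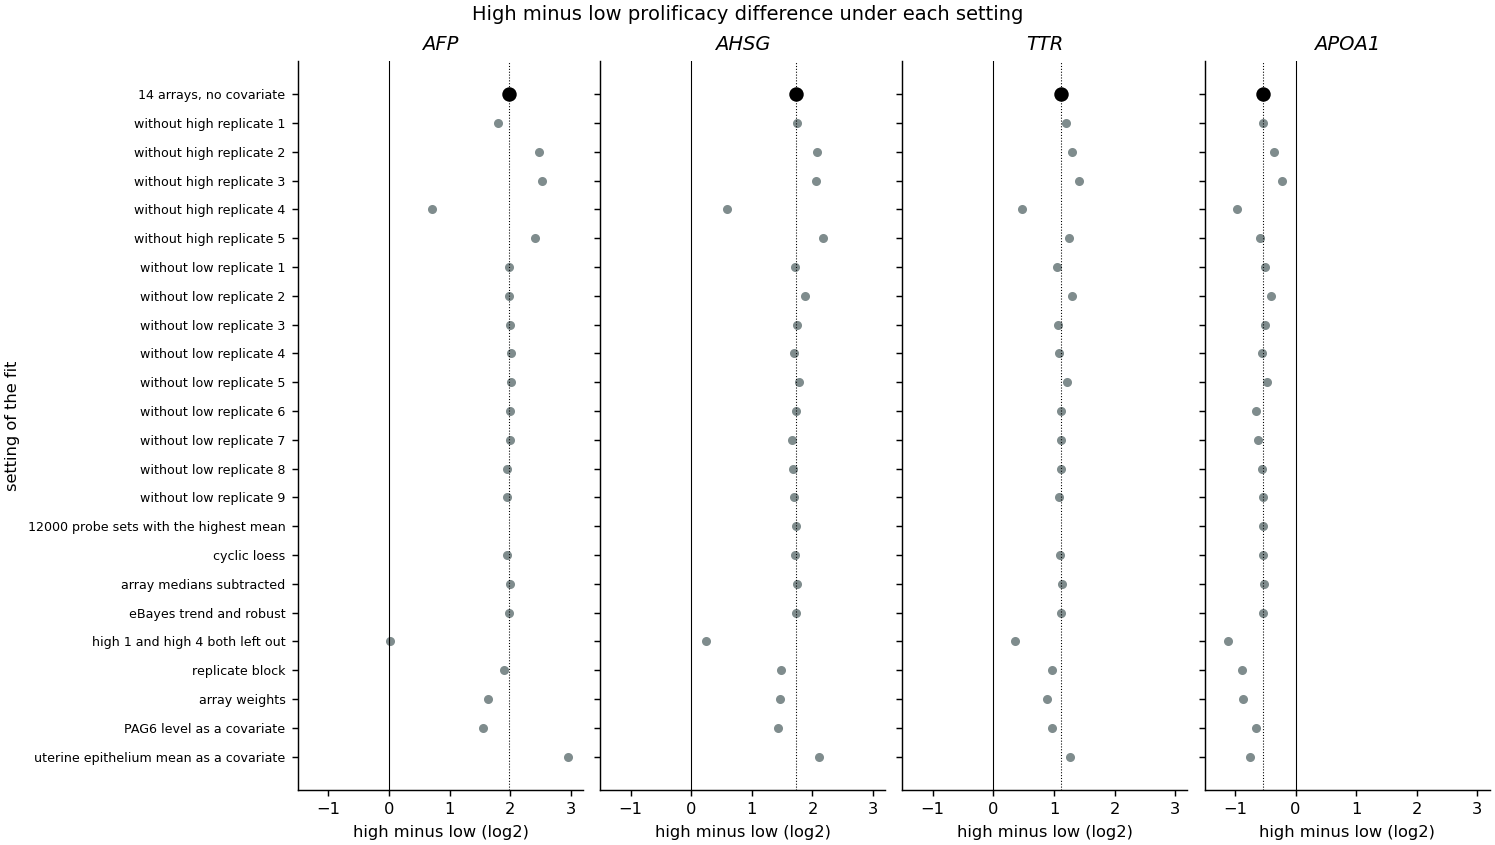
High minus low prolificacy difference on the log2 scale (horizontal axis) for AFP, AHSG, TTR and APOA1 under each way of fitting, with a large black point for all 14 arrays without covariate and grey points for the other fits. For AFP it is 1.98 over all arrays and 0.02 without high 1 and high 4, and for APOA1 it is -0.53 and -1.11.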

How the data were processed

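The deposited values are log2 expression levels per probe set, which the authors summarised with RMA (per the submitters' processing notes). The version of that software is not given in the sources used here, and RMA makes the intensity distributions of the arrays equal, so a shift shared by most transcripts would be removed. Of 24123 probe sets, 124 controls were left out. In the platform annotation, which can be old, 10069 of the rest had 1 symbol, 198 several and 13732 none, and only the first were named. Of the 10069, 9961 were found in the Sscrofa11.1 gene table, with 0 symbols changed.

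Each probe set was fitted with limma 3.58.1 in R 4.3.3 (lmFit and eBayes, two-sided, no covariate, no filter) for high minus low prolificacy, and for slopes on the PAG6 and the AFP level. P-values were adjusted by Benjamini-Hochberg over all probe sets, with a threshold of 0.05. SD is between arrays of a group and SE is limma's moderated standard error. P-values measure the spread between these sows. The script was tested on simulated data. The number of arrays limits the precision.

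The members and lists were chosen with earlier results of these data known. The lists hold plasma proteins, hepatocyte enzymes, endoderm transcription factors, yolk sac uptake, partners of APOA1 and TTR, trophoblast, erythroid, fetal growth, uterine epithelium, gland secretion and smooth muscle. Named genes were the members, PAG genes, a fixed set (ALB, TF, SERPINA1, RBP4, HBE1, HBB, IGF2, HNF4A and others), the 5 genes most like each member and the 3 of each list with the smallest group p. Markers of cell types were also named, and other genes of the lists were picked after their values were seen. A gene stands for its brightest probe set unless stated. Alternatives were another normalisation, a filter to the 12000 brightest probe sets, array weights, covariates, a replicate block and leaving out arrays.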

Additional observations from a re-analysis of the deposited data

Results flagged for a closer look

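Within each group of arrays, 26 genes were looked over for an array far from the nearest of the others, by Dixon's criterion. Chance passes it in about 1 in 20 groups of genes chosen without regard to their levels, but many of these genes were chosen by theirs or as most like the members, so the counts are no test. Of 52 groups, 11 had such an array, and in 8 of them it was high 4.

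Among high prolificacy arrays, high 4 stood apart in AHSG at 12.98 (the next at 8.32), in TTR at 8.44 (5.58), in SERPINA1 at 12.31 (5.89) and in APOC2 at 8.39 (4.60). It also did so in APOB at 8.18 (3.63), in PLG at 7.50 (4.94), in HBE1 at 12.57 (6.20) and in EIF1AY at 5.86 (2.55). AFP in high 4 did not pass this criterion because high 1 was raised too.

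Among low prolificacy arrays, low 5 stood apart in APOC2 at 5.43 (the next at 3.87) and in APOB at 5.42 (3.92). Low 3 stood apart as the lowest in HBB, the adult beta globin gene, at 5.78 (7.25).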

How the results depend on the processing

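Over up to 23 other settings, the differences of AFP, AHSG and TTR stayed positive and that of APOA1 negative. Leaving out 1 array at a time gave 0.71 to 2.53 for AFP, 0.59 to 2.17 for AHSG, 0.48 to 1.42 for TTR and -0.96 to -0.23 for APOA1. AFP without both high 1 and high 4, a setting chosen after seeing the data, was 0.02. AFP and TTR were not among the 12000 brightest probe sets and have no value there.

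The 1885 probe sets called between the groups became 944 to 2650 when 1 array was left out (944 without high 3 and 1002 without high 2). They became 3060 with array weights, 2979 without high 1 and high 4, 35 with the replicate block and 2 with the epithelial mean as a covariate, where the difference of DLX5 turned to -0.37. The cause was not tested. The labels do not say whether the replicate numbers pair the sows. Deviations of same-numbered arrays from their group means correlated between -0.25 and 0.42, and 1 of 5 high prolificacy arrays correlated best with its own number. These correlations cannot show whether sows were paired, since other differences between the arrays also enter them. With the replicate block, the calls of SCARB1 (0.11), AMN (0.13), ABCA1 (0.094), MAT1A (0.20), DLX5 (0.096), NDN (0.22) and SFRP1 (0.30) were lost (limma adjusted p in parentheses), and that of CES1 was not (0.049). None of these 8 genes was called with the epithelial mean.

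The 104 probe sets called for a slope on PAG6 became 67 (without high 4) to 117 when 1 array was left out, 36 among the 12000 brightest, 37 with AFP as a covariate and 54 without high 1 and high 4. The 176 called for a slope on AFP became 20 (without high 4) to 217, and 3, 27 (PAG6 as the covariate) and 1 under the same other settings. Few probe sets that follow AFP are bright, and the number of sows with raised AFP limits every value.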
